A study of Mus musculus with 12 samples.

Results

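The small proline-rich (Sprr) genes of mouse chromosome 3 were measured by RNA-Seq in tumor organoids with and without SMAD4 induction. The 9 genes described here (Sprr1a, Sprr1b, Sprr2a1, Sprr2a2, Sprr2a3, Sprr2b, Sprr2d, Sprr2h and Sprr3) are 9 of 24906 genes in each deposited table and 9 of the 16 Sprr genes listed there. They were chosen by their levels and their change with doxycycline (dox) in these same libraries, so both are given as descriptions. No p-value is printed for any of the 9, and no test supports a statement on them.

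The organoids came from macroscopic intestinal tumors of mice with floxed Smad4 and BRAFV600E/+, 1 activated BRAF allele, recombined by Villin-CreERT2, a tamoxifen-inducible Cre driven in the intestinal epithelium. All libraries, controls included, therefore carry the Smad4 loss and the BRAF allele, and all are labelled with pINDUCER-SMAD4, from which dox switches on SMAD4 after lentiviral transduction. For growth in 3D the organoids were embedded in BME (basement membrane extract), where lines 682, 700 and 889 were sequenced untreated, lines 700 and 889 after 48 h of 4 μg/mL dox, and line 682 once more under a dox label that adds the word mock, although its title reads like those of the dox libraries and its genotype label is the same in all libraries (6 libraries, 3 untreated, 2 dox and 1 mock). Lines 560, 700 and 889 were also sequenced with and without dox on tissue culture plastic, which gave 3 libraries of each kind. Per the study's methods, tamoxifen was given to young adult mice. The study's first figure shows tumor organoids derived some months after the injection, and no interval is stated for the lines sequenced here.

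Small proline-rich proteins are precursors of the cornified envelope, the layer that forms beneath the membrane of squamous cells when transglutaminases crosslink its components. Their genes lie in the epidermal differentiation complex beside those for loricrin, involucrin and the late cornified envelope proteins. In the gut, Sprr2a is known as an epithelial gene that responds to bacteria, and Sprr1a is known as a gene of regenerating and injured tissue.

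The 16 Sprr genes span 284.7 kb of chromosome 3, from 92019757 to 92304415 in the NCBIM37 assembly, which is also known as mm9. The Sprr2 genes lie on the plus strand, and Sprr1a (92287877 to 92289816), Sprr1b and Sprr3 lie on the minus strand. Several are near-identical copies, which bears on every Sprr2a value below. The coding sequences of Sprr2a1 and Sprr2a2 differed at 0 of 252 bases, and Sprr2a3 differed from both at 3 positions (98.8% identity), namely G63A, G159T and A192T, counted from the first base of the start codon with the Sprr2a1 base first. These sequences show how little separates the 3 genes in a read, with the bases that differ in capitals.
Sprr2a1 and Sprr2a2: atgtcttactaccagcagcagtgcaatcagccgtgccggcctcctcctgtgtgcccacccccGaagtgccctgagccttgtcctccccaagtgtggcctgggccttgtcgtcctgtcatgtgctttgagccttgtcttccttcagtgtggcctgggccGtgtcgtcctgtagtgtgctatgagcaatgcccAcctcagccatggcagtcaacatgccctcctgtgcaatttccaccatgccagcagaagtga
Sprr2a3: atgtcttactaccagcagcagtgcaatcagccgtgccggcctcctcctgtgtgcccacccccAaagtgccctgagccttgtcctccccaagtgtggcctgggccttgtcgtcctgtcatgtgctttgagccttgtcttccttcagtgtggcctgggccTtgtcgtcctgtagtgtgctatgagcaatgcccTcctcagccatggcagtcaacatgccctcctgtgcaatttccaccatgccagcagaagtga

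Short tandem repeats make up much of Sprr1a and Sprr2h. The most frequent 12-base word in frame in Sprr1a occurred 5 times in its 435 coding bases, and that in Sprr2h occurred 6 times at a spacing of 27 bases in its 327 coding bases. Stretches of 150 coding bases are shown with that word in capitals, from base 157 to 306 in Sprr1a and from base 85 to 234 in Sprr2h. The Sprr2h word also occurs in the Sprr2a3 sequence above.
Sprr1a: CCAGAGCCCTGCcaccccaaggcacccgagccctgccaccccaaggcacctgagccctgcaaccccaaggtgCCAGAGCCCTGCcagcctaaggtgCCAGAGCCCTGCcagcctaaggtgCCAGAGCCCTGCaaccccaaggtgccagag
Sprr2h: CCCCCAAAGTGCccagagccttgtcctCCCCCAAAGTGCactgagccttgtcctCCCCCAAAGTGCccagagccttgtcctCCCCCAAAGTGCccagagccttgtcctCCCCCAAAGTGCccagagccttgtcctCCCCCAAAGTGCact

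To ask which genes a read could be assigned to, each annotated transcript (GENCODE vM1) was divided into words of 31 bases and matched to all protein-coding transcripts. Only 1.8% of the words of Sprr2a1 and 1.8% of those of Sprr2a2 occurred in no other gene, against 32.4% for Sprr2a3 and 71.3% for Sprr2b. The share was 89.9% for Sprr2d, 97.0% for Sprr2h, and no word of Sprr1a, Sprr1b or Sprr3 occurred in another gene. The values of Sprr1a, Sprr1b, Sprr2h and Sprr3 can thus be read gene by gene, while Sprr2a1 and Sprr2a2 cannot be told apart by most of their bases. In this annotation the gene models of Sprr2a1 and Sprr2a2 also overlap in position, as do those of Sprr2a2 and Sprr2a3. The annotation behind the deposited values is not known, so the shares may differ there.

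**Figure D1:**
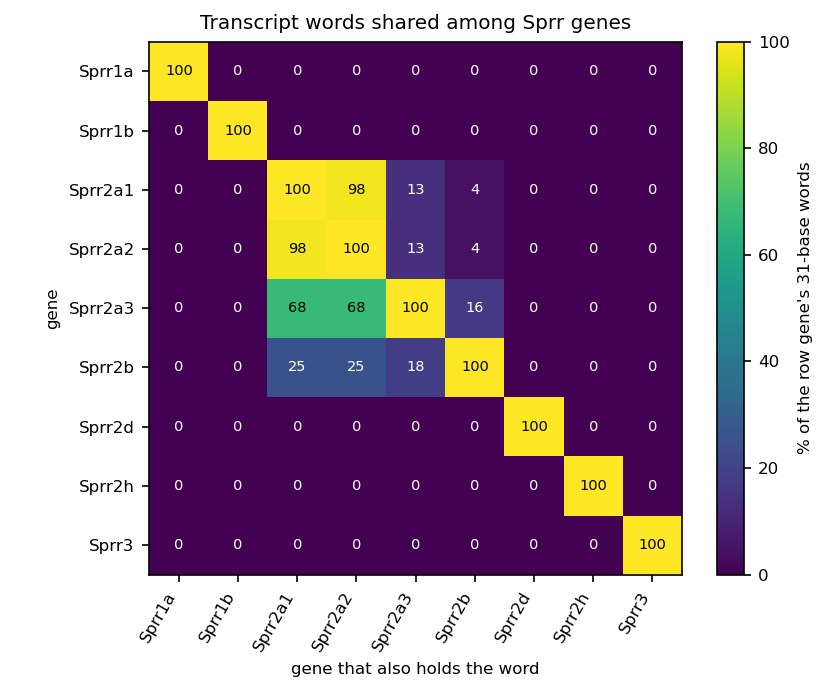
Percent of the 31-base words of each Sprr gene (rows) that also occur in another Sprr gene (columns), from GENCODE vM1 transcripts. Sprr2a1 and Sprr2a2 share 98% of their words, 68% of those of Sprr2a3 occur in each of them, and Sprr1a shares none with the others.

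The deposited split among the 3 copies varied with this. Over the 12 libraries, Sprr2a1 took 23.7% to 40.0% of the summed FPKM of the trio, Sprr2a2 took 20.4% to 39.0% and Sprr2a3 took 29.2% to 52.6%. In 2 libraries (untreated line 682 in BME and dox line 700 on plastic) Sprr2a1 and Sprr2a2 were listed at exactly the same FPKM. The sum of the 3 genes is therefore given beside the single values.

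**Figure D2:**
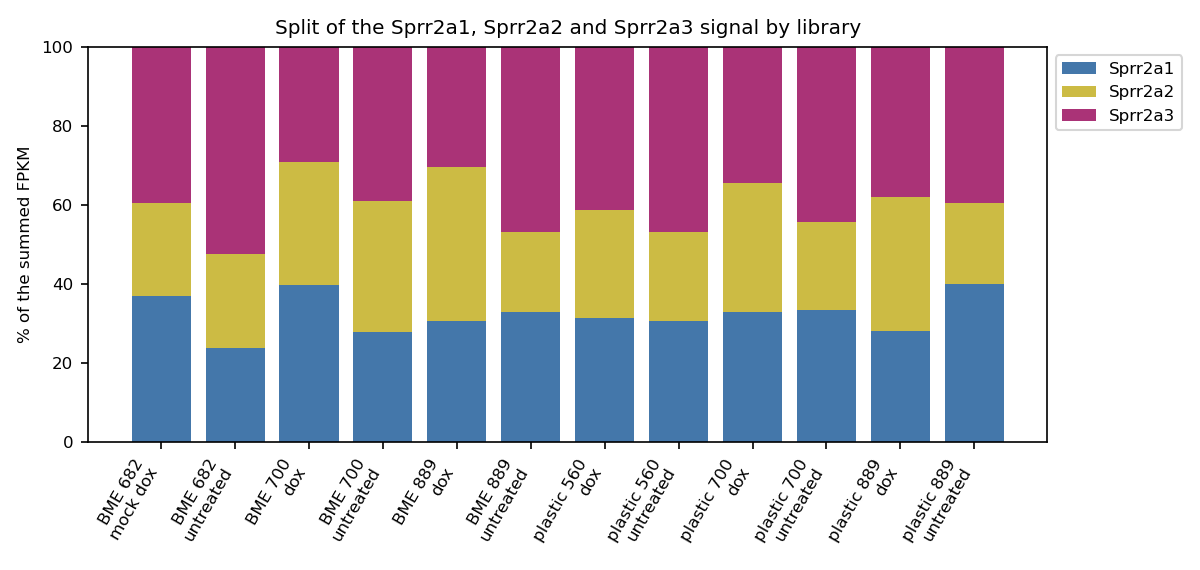
Share of the summed FPKM of Sprr2a1, Sprr2a2 and Sprr2a3 (stacked bars, percent) in each of the 12 libraries. Sprr2a3 ranged from 29.2% to 52.6%, and no copy took most of the signal in all libraries.

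The promoters separated the genes in the same way. RefSeq promoter windows (GRCm38.p6, 250 bases before to 50 after each start) matched all 9 genes, and those of Sprr2a1 and Sprr2a2 differed at 0 of 300 bases. The Sprr2a3 window held the same sequence displaced by 28 bases, with 0 differences over the 272 bases in common. The 250 bases before the start are shown for Sprr1a, Sprr2a1 and Sprr2h, the 3 genes with distinct patterns below, with matches to the AP-1 motif (TGANTCA), the TATA box (TATAAA) and the octamer (ATTTGCAT) in capitals.
Sprr1a, chr3:92485882-92486131, minus strand: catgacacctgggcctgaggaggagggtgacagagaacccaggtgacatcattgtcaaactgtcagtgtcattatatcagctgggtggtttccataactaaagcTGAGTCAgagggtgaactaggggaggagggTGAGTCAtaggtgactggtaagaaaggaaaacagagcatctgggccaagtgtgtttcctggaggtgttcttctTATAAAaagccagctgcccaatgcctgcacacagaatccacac
Sprr2a1, chr3:92215585-92215834, plus strand: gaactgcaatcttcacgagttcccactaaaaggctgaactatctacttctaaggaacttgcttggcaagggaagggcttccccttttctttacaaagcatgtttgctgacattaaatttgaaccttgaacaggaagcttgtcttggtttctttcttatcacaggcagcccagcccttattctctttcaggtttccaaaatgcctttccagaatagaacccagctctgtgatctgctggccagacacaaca
Sprr2h, chr3:92385435-92385684, plus strand: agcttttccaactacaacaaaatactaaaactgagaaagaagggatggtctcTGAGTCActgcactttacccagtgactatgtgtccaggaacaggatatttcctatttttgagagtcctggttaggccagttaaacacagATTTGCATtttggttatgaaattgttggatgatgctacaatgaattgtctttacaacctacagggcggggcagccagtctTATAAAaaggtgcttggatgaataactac

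Motifs were searched on both strands in these 250 bases and in those of all 32851 RefSeq promoters of the table. AP-1, the motif of FOS and JUN proteins, was found in 5 of 9 Sprr promoters (Sprr1a, Sprr1b, Sprr2b, Sprr2d and Sprr2h) and in 6.75% of all promoters. In Sprr1a it occurred at 2 places, from -146 to -140 and from -116 to -110. The TATA box was found in 6 of 9 and in 12.4% of all promoters, and the octamer, bound by POU factors, was found in 3 of 9 (Sprr2b, Sprr2d and Sprr2h) and in 1.6%. None of these 3 motifs had a match in the windows of the Sprr2a trio. The SMAD element CAGAC was found in 3 of 9 (Sprr2a1, Sprr2a2 and Sprr1b) and in 42.2% of all promoters. The matches in Sprr2a1 and Sprr2a2 lie in identical sequence and are not separate instances, and in Sprr2a3 the same letters lie just after the annotated start, outside the bases searched. The ETS core AGGAA was in 9 of 9 against 60.3%, and the KLF box CACCC was in 4 of 9 against 52%. Sprr2b, Sprr2d and Sprr2h are related copies with the octamer and TATA box at nearly the same distance from the start, so they are not separate instances.

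Facts of all libraries that touch these values are few. Scaled depth rebuilt from the FPKM steps lay roughly between 13210016 and 16302340 reads for the BME libraries and between 16259316 and 21429090 for those on plastic. It need not equal the number of reads sequenced. Smad4 was 6.23 to 10.3 FPKM in the 4 control libraries in BME and 17.2 and 27.3 with dox, and it was 1.54 to 4.76 untreated and 18.1 to 73.6 with dox on plastic. Id1 and Id3, targets of BMP signaling, were also higher with dox than without in every dox pair, but in the mock library Smad4 (10.3 FPKM), Id1 (6.24) and Id3 (0.333) stood near untreated line 682 (8.88, 8.94 and 0). In the limma fits Smad4, Id1 and Id3 were 3 of 3 higher at an unadjusted p under 0.05 in both dishes, with 0 called. The epithelial markers Epcam, Cdh1 and Krt8 were above 100 FPKM in all 12 libraries. Some others of the intestinal list were lower, with Cdx2 at 22.7 to 115 FPKM, Hnf4a at 8.92 to 141 and Krt20 at 0.592 to 15.5. Cdx1 was 10.1 and 8.28 FPKM in untreated and dox line 700 in BME and at most 0.268 elsewhere. Trp63, which defines basal squamous cells, was at most 0.0822 FPKM in BME and 0.0103 on plastic. Krt4 of the squamous list was 14.3 to 193 FPKM. The 2 tables were normalized separately by the authors, so levels are set side by side between them and not tested.

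Of the 9 genes, only Sprr1a and the Sprr2a trio stood above 1 FPKM in BME. Sprr2h joined them in 5 of 6 plastic libraries, and the other 4 (Sprr1b, Sprr2b, Sprr2d and Sprr3) stayed below 1 FPKM in all 12 libraries. A mean of at least 0.5 FPKM, the limit for the fit across genes, was passed by 4 of the 9 in BME and 5 on plastic. Because RNA was taken from bulk organoids, fewer cells of a type and less RNA per cell cannot be told apart.

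Sprr1a encodes a cornified envelope precursor, and it was listed at 41.9 to 184 FPKM in BME and at 203 to 6549 on plastic. In BME it was 45.8 FPKM in untreated line 682, 48.1 in untreated line 700 and 184 in untreated line 889, with 41.9 in the mock library, 60.5 in dox line 700 and 163 in dox line 889. Both libraries of line 889 lay far above all others, and the dox and control groups overlapped. The same-line change of log2(FPKM + 1) was 0.33 in line 700 and -0.18 in line 889, with a mean of 0.08 ± 0.36 (SD, n = 2 pairs).

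On plastic Sprr1a was among the most abundant transcripts without dox. It was 6549 FPKM in untreated line 560, 4109 in line 700 and 5201 in line 889, ranks 7, 10 and 5 of all genes of the library. With dox it was 1308 in line 560, 203 in line 700 and 1344 in line 889. The 3 dox libraries lay below every untreated library, with no overlap. The dox level was 0.20 times the untreated level in line 560, 0.0494 times in line 700 and 0.258 times in line 889, and the mean same-line change was -2.87 ± 1.28 (SD, n = 3 pairs). Dox line 700 stood at rank 487, and dox lines 560 and 889 stood at ranks 47 and 55.

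The Sprr2a genes showed another pattern. In BME the trio summed to 261 FPKM in untreated line 682, 359 in line 700 and 807 in line 889, and to 1032 in the mock library, 807 in dox line 700 and 2949 in dox line 889. Both dox libraries and the mock library were above the untreated library of their line, while dox line 700 and untreated line 889 stood at the same level. The mean change of the sum was 1.52 ± 0.50 (SD, n = 2 dox pairs), and the mock pair changed by 1.98. Smad4, Id1 and Id3 in the mock library were near the level of untreated line 682, and any part of SMAD4 in these differences was not tested.

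Sprr2a1 was 61.9, 100 and 265 FPKM in untreated lines 682, 700 and 889, 381 in the mock library, and 320 and 899 in dox lines 700 and 889. Sprr2a2 was 61.9, 119 and 165 FPKM untreated, 244 in the mock library, and 251 and 1151 with dox, so that both dox libraries lay above all 4 control libraries. Sprr2a3 was 137, 140 and 377 FPKM untreated, 407 in the mock library, and 235 and 899 with dox. For Sprr2a1 and Sprr2a3 the mock library lay above dox line 700. The mean change in the dox pairs was 1.71 ± 0.07 for Sprr2a1, 1.93 ± 1.22 for Sprr2a2 and 1.00 ± 0.36 for Sprr2a3 (SD, n = 2), and that of the mock pair was 2.60, 1.96 and 1.56. The spread of the Sprr2a2 change, from 1.07 in line 700 to 2.80 in line 889, is larger than that of the sum. Both dox libraries weighed on the limma changes of Sprr2a1, Sprr2a2 and Sprr2a3, which were 1.75, 2.03 and 0.98 with all libraries. They were 1.01, 0.93 and 0.01 without dox line 889 and 2.50, 3.12 and 1.94 without dox line 700. These fits ignore the pairing, and the same-line changes in line 700 were 1.67, 1.07 and 0.75.

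On plastic the direction of the trio differed from line to line. The sum was 952 FPKM untreated and 2215 with dox in line 560, 152 and 25.3 in line 700, and 447 and 439 in line 889. It was higher with dox in line 560, lower in line 700 and level in line 889, and the groups overlapped. The mean change was -0.45 ± 1.91 (SD, n = 3 pairs), with a spread several times its size, and the limma changes of the 3 copies were 1.07 to 1.77 without dox line 700 and -2.12 to -1.25 without dox line 560. Line 700 gave opposite signs in the 2 dishes, 1.17 in BME and -2.54 on plastic, with 1 pair in each.

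The single copies on plastic differed from the sum in line 889. Sprr2a1 was 291, 50.8 and 179 FPKM in untreated lines 560, 700 and 889 and 692, 8.31 and 123 with dox. Sprr2a2 was 215, 33.7 and 91.9 untreated and 610, 8.31 and 149 with dox. Sprr2a3 was 447, 67.6 and 176 untreated and 913, 8.70 and 167 with dox. All 3 copies were higher with dox in line 560 and lower in line 700, and in line 889 Sprr2a2 was higher with dox while Sprr2a1 was lower and Sprr2a3 changed by -0.08. Mean changes were -0.59 ± 1.86, 0.10 ± 1.77 and -0.62 ± 1.98 for Sprr2a1, Sprr2a2 and Sprr2a3 (SD, n = 3 pairs).

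Sprr2h, a repeat-rich member whose words are nearly all its own, was close to absent in BME. It was listed at 0 in 3 of 6 BME libraries, and the others were 0.113 FPKM in untreated line 700, 0.127 in dox line 700 and 0.410 in untreated line 889. On plastic it was 2.66, 0.341 and 7.24 FPKM in untreated lines 560, 700 and 889 and 5.88, 3.93 and 66.4 with dox. It was higher with dox in 3 of 3 pairs, by ratios of 2.21, 11.5 and 9.17, but the groups overlapped because untreated line 889 exceeded dox lines 560 and 700. The mean change was 1.94 ± 1.06 (SD, n = 3 pairs), and without dox line 889 the limma change was 0.76. Rebuilt from the scaled depth, about 4.4 reads lay behind the untreated value of line 700 and about 690 behind the dox value of line 889.

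**Figure D3:**
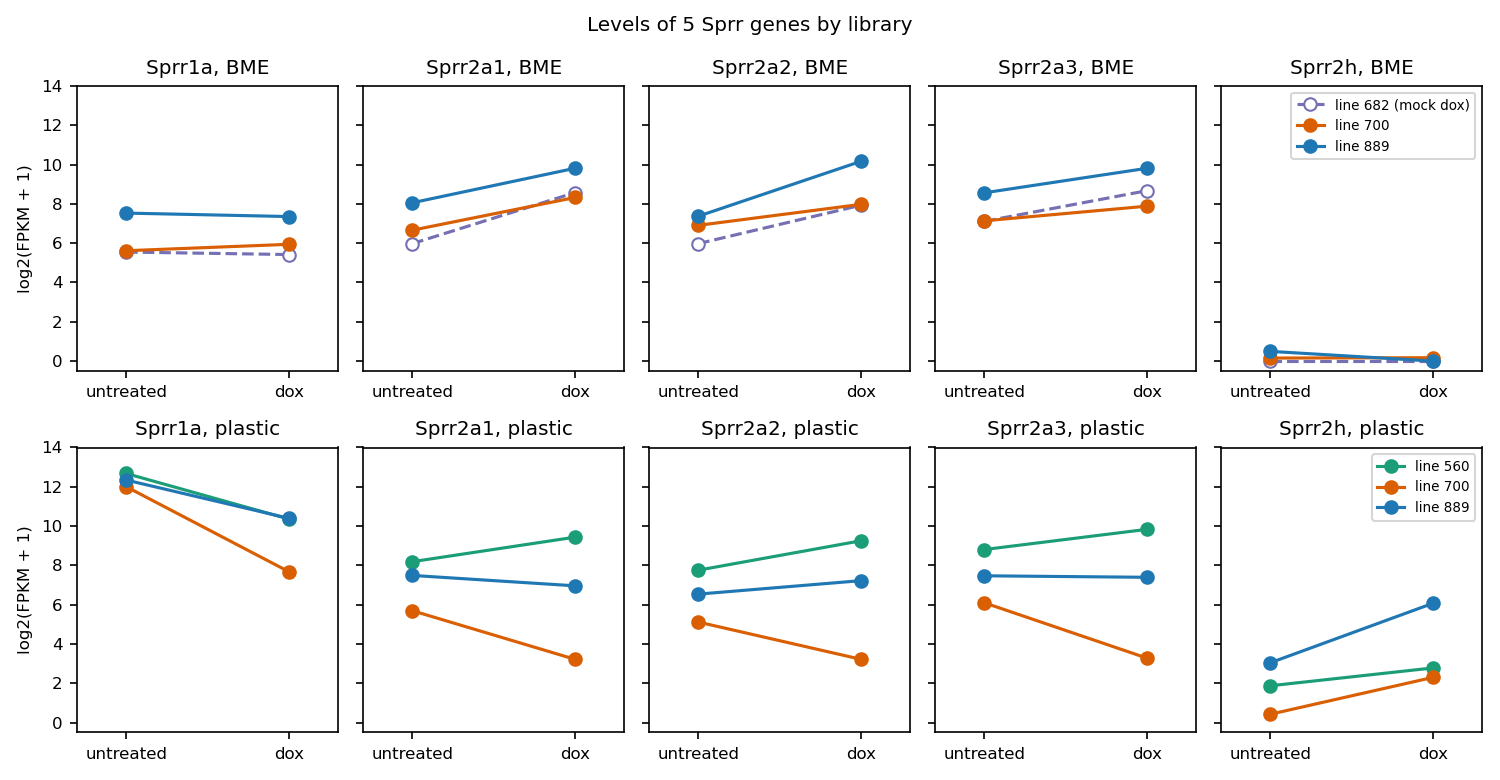
Level of 5 Sprr genes as log2(FPKM + 1) in untreated and dox libraries, joined by line, in BME (top) and on plastic (bottom), with the mock pair of line 682 dashed and open. Sprr1a was lower with dox in 3 of 3 plastic pairs, the Sprr2a genes were higher in both dox pairs and the mock pair in BME, and Sprr2h was higher with dox in 3 of 3 plastic pairs.

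The other 4 genes were at or near 0. Sprr1b was above 0 only in untreated line 700 in BME (0.202 FPKM) and in untreated line 700 (0.0761) and dox line 889 (0.0946) on plastic. Sprr3, a precursor found in oral and esophageal epithelium, was listed at 0 throughout BME and was 0.204 and 0.252 FPKM in untreated lines 560 and 889 on plastic. Sprr2b and Sprr2d were above 0 in 1 BME library each, at 0.231 and 0.126 FPKM. On plastic Sprr2b was at most 0.585 FPKM and Sprr2d at most 0.485, both in dox line 889, from about 5.6 and 4.5 reads. These 4 genes were below the limit for the fit, and no difference between dox and control is read from such low values.

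**Figure D4:**
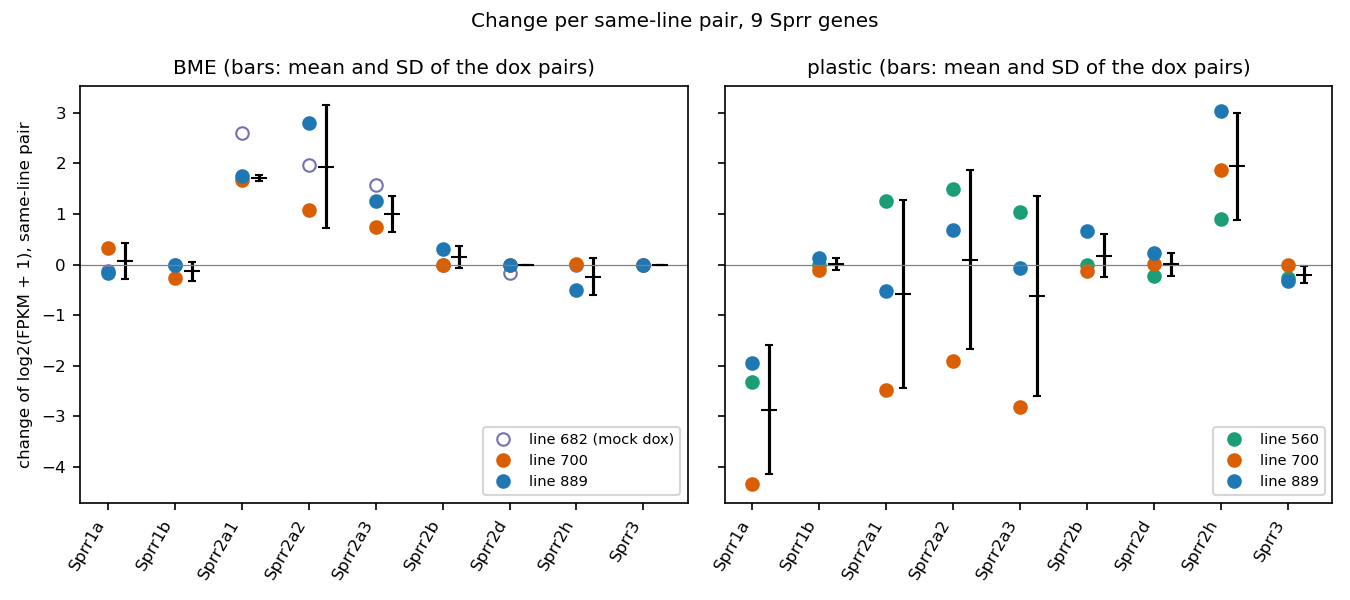
Change of log2(FPKM + 1) in each same-line pair (points, coloured by line, mock pair open) for the 9 Sprr genes, with the mean and SD of the dox pairs beside them. On plastic Sprr1a lies at -1.95 to -4.33 and Sprr2h at 0.91 to 3.03, while the Sprr2a genes spread to both sides of 0.

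The rest of the family shows whether Sprr2h stood alone. Among the 7 other Sprr genes, none reached the limit for a test in BME, where Sprr2f was at most 1.20 FPKM and Sprr2g at most 0.616. On plastic Sprr2g was 0.392, 0.104 and 0.882 FPKM in untreated lines 560, 700 and 889 and 2.45, 0.955 and 35.3 with dox, higher in 3 of 3 pairs. Sprr2f was 0, 0.684 and 0.647 untreated and 6.98, 0.131 and 10.1 with dox, higher in lines 560 and 889 and lower in line 700. Untreated means were 0.459 and 0.443 FPKM, so both genes entered the fit only through their dox libraries, and no fitted change is given for them. The remaining values were traces, at most 1.56 FPKM for Sprr2e (dox line 889, plastic), 0.832 for Sprr4 (untreated line 889, BME), 0.374 for Sprr2j-ps, 0.133 for Sprr2k and 0.129 for Sprr2i.

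Across all genes, the limma fit (Benjamini-Hochberg adjusted p under 0.05, absolute change over 1) called 3 of 12996 genes with dox in BME (0.0231%) and 4 of 12333 on plastic (0.0324%). Smad4, the induced gene, was not called (limma adjusted p = 0.959 in BME and 0.162 on plastic). A gene or list with 0 called is therefore not shown to be unchanged. The study's own DESeq2 comparison called far more genes in both dishes. With the line number as a replicate block the calls were 0 in BME and 7 on plastic. The Sprr genes counted 0 of the 4 fitted in BME and 0 of the 5 on plastic among the limma calls. At an unadjusted p under 0.05 the counts were 1 of 4 in BME, where 4.09% of all genes passed, and 1 of 5 on plastic, where 8.29% passed. An absolute limma change over 1 was found for 2 of 4 in BME (Sprr2a1 at 1.75, SE 0.82, and Sprr2a2 at 2.03, SE 0.74), against 2.99% of all genes, and for 2 of 5 on plastic (Sprr1a at -2.87, SE 0.75, and Sprr2h at 1.94, SE 1.11), against 5.85%. Dox and control libraries did not overlap for 1 of 4 in BME and 1 of 5 on plastic, against 12.2% and 15.1% of all genes. Because the genes were chosen on this contrast, nothing is read from these counts.

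The companion genes of the cornified envelope were compared next, from a list written by hand. Of 39 cornified envelope genes 11 were tested in BME and 16 on plastic, and 0 were called by limma in either, with 0 and 3 at an unadjusted p under 0.05. In BME the most abundant were Dsp (59.1 FPKM), Ppl (15.0), Scel (11) and Sbsn (6.62), with changes from -0.16 to 0.39, and the median of the list was 0.25 against -0.01 for all genes. On plastic they were Crct1 (279 FPKM), Lce1h (189), Dsp (71.3) and Ppl (26.2). Dsp encodes desmoplakin and Ppl periplakin, which link keratin to the cell border, and Lce1h is a late cornified envelope gene.

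On plastic some of these genes were lower with dox, as Sprr1a was, and others higher, and none passed the test. Lce1h was 244, 100 and 545 FPKM in untreated lines 560, 700 and 889 and 63.8, 47.7 and 136 with dox, a change of -1.66 (SE 0.67, limma adjusted p = 0.589). Lor, which encodes loricrin, was 22.5, 13.7 and 28.6 untreated and 4.88, 9.37 and 7.90 with dox, a change of -1.41 (SE 0.34, adjusted p = 0.358). Crct1 was 105, 121 and 177 untreated and 115, 579 and 579 with dox, a change of 1.36 (SE 0.65, adjusted p = 0.644). Lor was chosen after its values were seen, for an unadjusted p under 0.05. So was Lce1f, which was 0.157, 0 and 0.626 FPKM untreated and 2.11, 1.63 and 17.0 with dox in the same order of lines, and which passed the filter on low values only through its dox libraries. The list median on plastic was -0.29 against 0.01 for all genes.

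Within 1 Mb of the cluster 34 other genes were listed, of which 4 were tested in BME and 10 on plastic, with 0 called by limma. At an unadjusted p under 0.05 there were 0 in BME, and on plastic 1 higher (Lce1f, with the limit just given) and 3 lower (Lor, Lce1h and Lce6a, at -2.43, SE 0.67), of which Lce6a too was named after its values were seen. The genes tested in BME were Crct1 (0.34, SE 0.65), Lor (0.40, SE 0.43), Tchh (0.001, SE 0.28) and Ivl (0.51, SE 0.28), and Ivl, which encodes involucrin, was at -0.04 (SE 0.74) on plastic.

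Transglutaminases crosslink Sprr proteins into the envelope. Of 8, 2 were tested in BME and 3 on plastic, with 0 called and 0 at an unadjusted p under 0.05 in the limma fits. Tgm2, the tissue transglutaminase, was the most abundant, at a mean of 54.1 FPKM in BME and 20.1 on plastic. Tgm1, the keratinocyte enzyme, changed by -1.23 on plastic (SE 0.57, adjusted p = 0.640) from a mean of 2.94 FPKM. Tgm4 had differences of 0.26 (SE 0.26) in BME and 0.39 (SE 0.21) on plastic.

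Stratified squamous markers were present in part. Of 18, 7 were tested in BME and 8 on plastic, with 0 called and 0 at an unadjusted p under 0.05. Krt4, a keratin of mucosal squamous cells, averaged 43.9 FPKM in BME and 121 on plastic, with changes of 1.22 (SE 0.68) and -0.30 (SE 0.34). Krt14, a keratin of basal squamous cells, averaged 0.850 FPKM in BME, and on plastic it was 44.5, 25.1 and 139 in untreated lines 560, 700 and 889 and 17.0, 3.70 and 198 with dox (-1.10, SE 1.36). Its usual partner Krt5 and the mucosal Krt13 stayed at most at 1.38 and 0.665 FPKM in both dishes. Serpinb5 averaged 22.3 FPKM in BME and 73.6 on plastic (0.64, SE 0.38, and 0.44, SE 0.53), and Pkp1, which encodes plakophilin 1, averaged 9.49 and 26.5 (1.06, SE 0.81, and 0.32, SE 0.38). In BME Ly6d was 15.4, 66.6 and 35.0 FPKM in untreated lines 682, 700 and 889, 7.25 in the mock library, and 44.4 and 275 in dox lines 700 and 889. It was higher with dox in line 889 and lower in line 700 and in the mock pair, and its limma change was 2.22 (SE 1.02, adjusted p = 0.959). On plastic Ly6d was 66.4, 59.9 and 10.6 in untreated lines 560, 700 and 889 and 268, 10.3 and 238 with dox, higher in 2 of 3 pairs. Summed over the list, squamous markers ranged from 48.7 to 161 FPKM untreated and 140 to 415 with dox in BME, with 37.3 in the mock library, and from 269 to 372 untreated and 325 to 622 with dox on plastic. In BME the sum was lower with dox in line 700 (161 untreated, 140 dox) and higher in line 889. There Ly6d (275 FPKM) and Krt4 (100 FPKM) made up most of the 415. Their part in the Sprr values was not tested.

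Regulators of Sprr promoters were measured as a further list of 19 genes, of which 18 were tested in BME and 17 on plastic, with 0 called. At an unadjusted p under 0.05 there were 2 lower in BME (Ehf and Zfp750) and 1 higher (Fos) and 1 lower (Zfp750) on plastic. Fos, an AP-1 subunit, was 14.7, 37.5 and 17.9 FPKM in untreated lines 560, 700 and 889 on plastic and 45.9, 156 and 58.4 with dox, a change of 1.75 (SE 0.54, limma adjusted p = 0.499). Fosl1, another AP-1 subunit, was 56.0, 115 and 117 untreated and 65.0, 419 and 254 with dox (1.06, SE 0.70, adjusted p = 0.755). Both were higher with dox in 3 of 3 plastic pairs, in which Sprr1a was lower and Sprr2h higher. Junb (0.48, SE 0.23), Jund (-0.32, SE 0.19) and the ETS gene Elf3 (0.32, SE 0.50) had smaller log2 differences on plastic, and none of them was called. In BME Fosl1 was 1.20, 11.6 and 5.26 FPKM in untreated lines 682, 700 and 889, 2.23 in the mock library and 12.7 and 12.6 with dox, higher in both dox pairs and the mock pair (1.49, SE 0.67, adjusted p = 0.959). The other AP-1 genes in BME were Fos (-0.39, SE 0.58), Fosb (-1.17, SE 1.19), Fosl2 (-0.31, SE 0.13), Jun (-0.59, SE 0.54), Junb (0.31, SE 0.26) and Jund (0.19, SE 0.21), and the difference for Elf3 was 0.18 (SE 0.52). In BME Pou2f3, a POU gene, was 7.18, 4.22 and 1.15 FPKM in untreated lines 682, 700 and 889. It was 1.31 in the mock library and 1.23 and 0.256 in dox lines 700 and 889, lower in both dox pairs and the mock pair. Its limma change was -1.19, and on plastic it was at most 0.631 FPKM. Fos on plastic, Ehf, Zfp750, Pou2f3 and the further AP-1 genes are named outside the rule on abundance, after their values were seen.

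Sprr1a is often measured with markers of a fetal-like, regenerative state of the gut. Of 12 such genes all were tested, with 0 called by limma, 0 at an unadjusted p under 0.05 in BME, and 1 higher and 1 lower on plastic. Ly6a, the marker also known as Sca-1, was 3184, 1625 and 2119 FPKM in untreated lines 560, 700 and 889 on plastic and 705, 135 and 718 with dox. The 3 dox libraries lay below the untreated ones, with a change of -2.44 (SE 0.69, adjusted p = 0.454). In BME it was 376, 709 and 1059 FPKM in untreated lines 682, 700 and 889, 236 in the mock library and 371 and 597 in dox lines 700 and 889, lower in both dox pairs and the mock pair, where Sprr1a was nearly level, and the limma difference was -0.11 (SE 0.61, adjusted p = 0.993). Clu (0.36, SE 0.29) and Anxa1 (-0.28, SE 0.38) had smaller differences on plastic, and Cldn4 had a limma difference of 1.03 (SE 0.32, adjusted p = 0.505). In BME the differences were -0.17 (SE 0.56) for Clu, 0.15 (SE 0.46) for Anxa1 and 0.97 (SE 0.51, adjusted p = 0.959) for Msln, which encodes mesothelin. Msln was 210, 505 and 142 FPKM in untreated lines 682, 700 and 889, 195 in the mock library and 591 and 355 in dox lines 700 and 889, higher in both dox pairs and not in the mock pair.

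**Figure D5:**
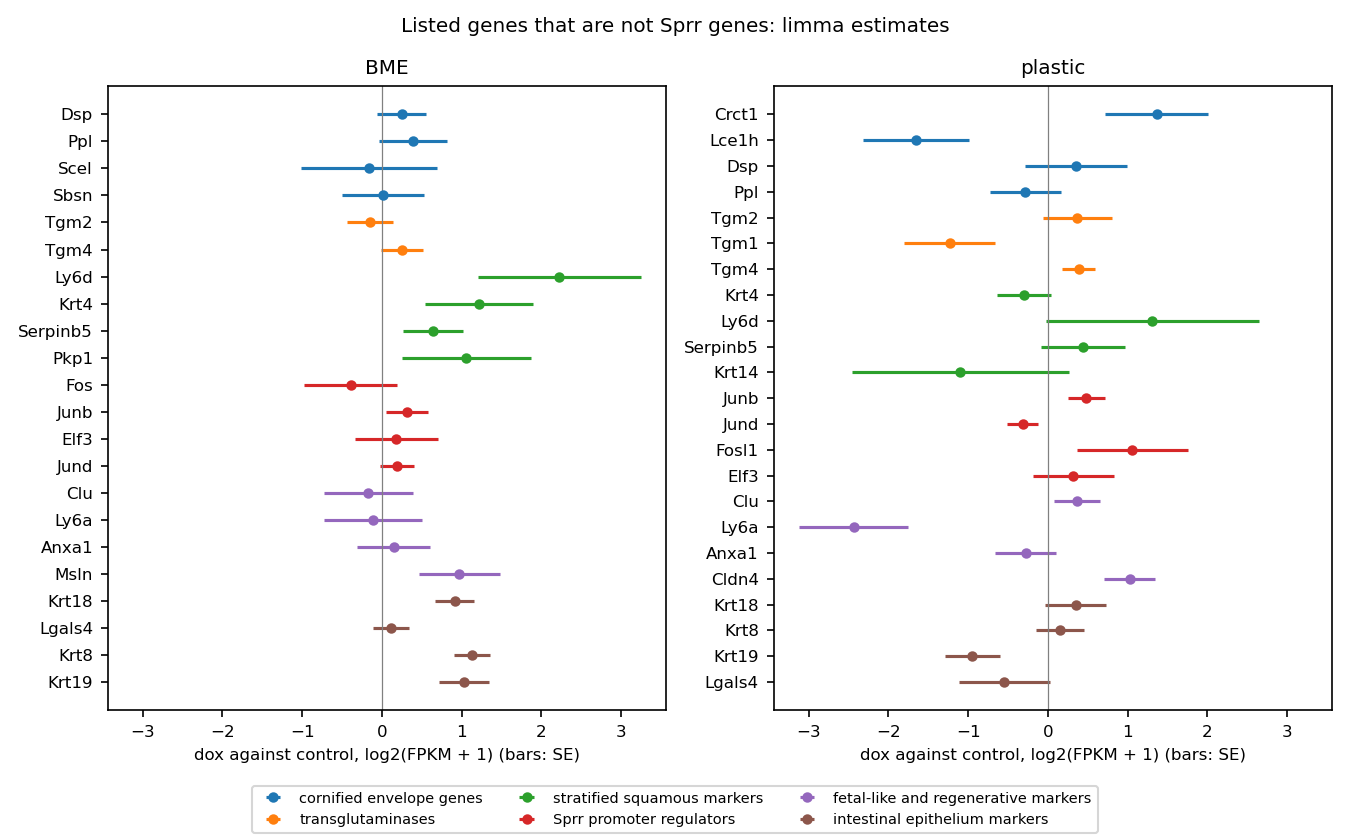
limma change of log2(FPKM + 1), dox against control, with its SE, for the most abundant tested genes of 6 lists in BME (left) and on plastic (right). The lists are cornified envelope genes, transglutaminases, squamous markers, Sprr promoter regulators, fetal-like markers and intestinal epithelium markers. None was called, and among the genes shown the largest shift on plastic is that of Ly6a at -2.44.

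Markers of the gut epithelium and of other cells were given beside these results. Of the 12 intestinal epithelium markers, 12 were tested in BME and 11 on plastic and 0 were called by limma, with 3 higher at an unadjusted p under 0.05 in BME (Krt8, Krt18 and Krt19) and 1 lower on plastic (Krt19). In BME Krt8 was 929, 1058 and 1286 FPKM in untreated lines 682, 700 and 889, 1322 in the mock library and 2206 and 2811 with dox. Lgals4, also abundant, had limma differences of 0.11 (SE 0.23) in BME and -0.55 (SE 0.57) on plastic. Of 17 immune, endothelial, and fibroblast and muscle markers, 4 were tested in BME and 1 on plastic, with 0 called and 0 at an unadjusted p under 0.05. Immune, endothelial, and fibroblast and muscle markers summed to at most 38.8, 0.913 and 7.14 FPKM in any library, with Ptprc, the pan-leukocyte gene, at most 0.0958 and Pecam1, the endothelial gene, at most 0.0253. Besides Cd68 the genes tested in BME were Itgam (0.03, SE 0.22), Col1a1 (0.76, SE 0.56) and Acta2 (0.26, SE 0.35), each at a mean of at most 1.10 FPKM. On plastic Cd68, a macrophage gene, was 38.7 FPKM in dox line 889, the library with the highest Sprr2h, and 2.70 to 15.1 in the other 5. The part of these markers in the Sprr values was not tested.

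Genes whose pattern was most like the Sprr genes were found by Pearson r over the 12 libraries, with the mean of each table subtracted, among 11075 genes. The libraries share lines and dishes, so r is a description. For Sprr1a they were Ly6a (r = 0.94), Pax8 (0.90), Kcnk1 (0.89), Abitram (0.88) and Ly6c1 (0.88). For the Sprr2a sum they were Spg7 (0.92), Qrsl1 (0.90), Tango6 (0.88), Vtcn1 (0.88) and Fermt1 (0.87). For Sprr2h they were Mllt11 (0.93), Kctd6 (0.93), Atp6v1g1 (0.92), Sh3bp2 (0.91) and Zswim4 (0.91), and within the 6 BME libraries alone, where Sprr2h was at most 0.410 FPKM, r was 0.35, -0.06, 0.71, 0.20 and -0.77 in the same order. Between the 3 patterns r was 0.59 for Sprr1a with the Sprr2a sum, -0.18 for Sprr1a with Sprr2h and 0.18 for the Sprr2a sum with Sprr2h. In the same order r was 0.62, 0.54 and -0.09 within BME and 0.59, -0.23 and 0.21 within plastic.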

How the data were processed

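RNA-Seq was performed by the authors on organoid RNA, and per the labels and the study's methods reads were quantified with kallisto and compared with DESeq2, with mm9 named as genome build. Tool versions and the transcript annotation are not given in the sources used here. The authors deposited FPKM values, which correct fragments for transcript length and library size, with separate tables for BME and plastic of 6 libraries each. Whether library size was a total or a DESeq2 size factor is not stated. The deposited tables of the authors' own comparisons, with fold changes and p-values, were not used.

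Changes were computed on log2(FPKM + 1), which understates changes of low genes. Genes that averaged 0.5 FPKM or more over a table were fitted with limma 3.58.1 in R 4.3.3 (lmFit, eBayes with trend, two-sided, Benjamini-Hochberg), dox against control within each environment, with the mock library as a control as in the study. The fit was also run on simulated data with independent noise of 1 spread for all genes and no line effect. That setting differs from these libraries, so it does not show how the fit behaves on them. Libraries that share a line number were taken as 1 organoid line. Deviations of same-line libraries from their group means correlated at 0.70 and 0.68 in BME and at 0.46, 0.61 and 0.25 on plastic, so changes are also given per same-line pair. The limma fit itself had no block, as the study names none, and the line as a block was an alternative. Depth was estimated from the steps between low FPKM values, of which 66.4% to 73.4% per library came out whole within 0.05 of a read, and is approximate.

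The 9 genes and the gene lists were chosen with earlier results of these data known. Named genes were the 9, the other Sprr genes above 0 in any library, of each other list the 4 most abundant tested genes and any called, a few genes named after their values were seen, as the text says, some defining markers, and the 5 genes most like Sprr1a, the Sprr2a sum and Sprr2h. Alternatives were a pseudocount of 0.1, no filter, the line as a block, each library left out, the Sprr2a genes summed, and a total of 1000000 per library.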

Additional observations from a re-analysis of the deposited data

Results flagged for a closer look

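Sprr1a in untreated line 889 in BME (184 FPKM) lay far above the other 3 control libraries, which were 41.9 to 48.1 FPKM. The dox library of the same line was 163 FPKM. Sprr1a was chosen by its levels in these libraries, and 2 of the 4 controls share line 682, so this is a description with no test.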

How the results depend on the processing

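Of the 9 genes, an absolute limma change over 1 was found for 2 in BME and 2 on plastic. The count in BME was 1 with the Sprr2a genes summed to 1 value. Leaving out 1 library gave 1 to 4 in BME, with 4 without dox line 700 or untreated line 889 and 1 without dox line 889, and 1 to 5 on plastic, with 5 without dox line 560 or 700, 4 without untreated line 700 and 1 without dox line 889. Where a left-out library leaves 1 dox library in BME, that library is assumed to vary like the controls. Genes called in BME (3, all higher) were 1 at a pseudocount of 0.1 (0 higher and 1 lower, so none of the 3 stayed called), 0 with the replicate block and 0 to 37 with a library left out, the 37 without dox line 700 and 0 without any other. On plastic (4) they were 10 at a pseudocount of 0.1 (5 higher and 5 lower, against 3 and 1), 0 with no filter, 7 with the block and 0 to 55 with a library left out, the 55 without dox line 700, 2 without dox line 889 and 0 without any other. The cause was not tested. Rescaled to 1000000 per library, an alternative chosen for these counts after seeing the data, 4 genes were called in BME (3 higher and 1 lower, against 3 and 0) and 11 on plastic (6 and 5). The replicate block changed no other call. No listed gene was called in any of these fits, except Smad4 and Id3 on plastic without dox line 700.

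The Sprr1a change on plastic ranged from -3.33 to -1.97 and that of Sprr2h from 0.76 to 2.65 over 11 alternatives each, with 0 changes of sign. The fits with no filter, with the block and with the Sprr2a genes summed cannot move either change. Both genes were chosen on this change, so the ranges are descriptions. Sprr2a1 in BME ranged from 1.01 to 2.50 and Sprr2a2 from 0.93 to 3.12, while on plastic the Sprr2a2 change had the opposite sign under 4 of 11, and the 3 copies were 1.07 to 1.77 without dox line 700 and -2.12 to -1.25 without dox line 560. With the block, the log2 difference of Sprr1a in BME was 0.08 (SE 0.16) in place of 0.62 (SE 0.70), which leaving out 1 library took from -0.09 (without dox line 889) to 1.33 (without dox line 700), with 1.12 without untreated line 889, and the SE of Sprr2h on plastic was 0.42 in place of 1.11. Low reads, at most 5.6 in a library, limit Sprr2b, Sprr2d and Sprr3, and no read number was rebuilt for Sprr1b, which was at most 0.202 FPKM.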
